A study of Sus scrofa with 6 samples.

Results

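The mitochondrial carrier family was described here in RNA-seq libraries of pig (Sus scrofa) oocytes. Its members were taken as all genes whose pig Ensembl symbol is SLC25A followed by a number, together with UCP1, UCP2 and UCP3. The table of gene names held 44 such symbols, and 43 of them had a row among the 25880 genes of the count files. Of 51 family symbols listed, 8 had no matching row and were not analysed here (UCP1, SLC25A2, SLC25A18, SLC25A29, SLC25A30, SLC25A37, SLC25A51 and SLC25A52). The libraries were made from oocytes arrested in metaphase II of meiosis (MII), matured in vitro from cumulus-oocyte complexes of slaughterhouse ovaries. There were 3 control libraries and 3 libraries of oocytes matured with 1 mM malathion, an organophosphate insecticide, added from a stock in DMSO. The labels name no strain or age, do not say whether the control medium held DMSO, and do not give the number of oocytes in a library or whether replicates were separate cultures, so the tests below measure only the spread between these libraries, which may be technical. No library of oocytes given melatonin, which the title of the series names, is among the 6.

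Carriers of the SLC25 family are nuclear-encoded proteins of the inner mitochondrial membrane, built of repeated pairs of membrane-spanning helices, and a few members sit in other membranes. They exchange ADP for ATP, bring in phosphate, and move keto acids, amino acids, acylcarnitines, coenzymes, iron and glutathione, while the uncoupling proteins let protons leak back across the membrane. The maturing oocyte draws on pyruvate oxidation and oxidative phosphorylation in a large maternal stock of mitochondria, and a grown oocyte is known to hold a store of transcripts laid down during growth.

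The libraries held 25816040 to 42312341 counts on genes. Levels are given as CPM, the usual scaling of counts to the total gene count of a library. A gene at 0 counts in a library could still have stood at up to 0.0709 to 0.116 CPM there (3 counts of the library total), and Wilson 95% confidence intervals were within ± 19.1% for carrier values of at least 100 counts, counting error only. Transcript lengths were not used here, so a CPM shows how many reads a gene received, and genes are not ranked by level against each other. Oocyte markers summed to 3771 to 57453 CPM in the control and 2850 to 66599 CPM in the malathion libraries (8 of 10 listed markers matched), the lowest sums being those of the replicate 3 libraries. GDF9, BMP15, ZP3, ZP4, BTG4 and WEE2 were each lowest in these libraries too. By contrast, ZP2 was highest in malathion replicate 3 (2158 CPM) and OOEP in control replicate 3 (382 CPM). Cumulus and granulosa markers (12 of 14 matched) summed to 37.0 to 654 CPM in the control and 66.2 to 728 CPM in the malathion libraries, with AMH at 0 in each library, FSHR at 0.540 CPM at most, VCAN at up to 424 CPM, KITLG at up to 244 CPM, and CYP11A1 at 0.0236 CPM in malathion replicate 3 and 81.6 CPM in malathion replicate 2. Their part in the carrier values was not tested. Both replicate 3 libraries stood apart, with 8344 and 8492 genes at 1 count or more against 12211 to 14707 in the other 4, and control replicate 2 stood more than 2-fold above each of the remaining 3 for 28.6% of the genes tested and more than 2-fold below each of them for 7.89%.

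Most carrier genes had transcripts in MII oocytes, and a small number of them took most of the family's reads. Of the 43 carriers, 19 had counts in every library and 6 had none in any library. These 6 were UCP3, SLC25A34, SLC25A41, SLC25A44, SLC25A45 and SLC25A47. UCP3, an uncoupling protein of skeletal muscle and brown fat, lies beside UCP2 in the RefSeq gene order of Sscrofa11.1, and SLC25A41 lies beside SLC25A23, another ATP-Mg carrier that had 12, 49 and 0 counts in control replicates 1, 2 and 3. The number of carriers with at least 1 count in replicates 1, 2 and 3 was 35, 36 and 22 for the control and 29, 30 and 21 for malathion. At an equal depth of 25816040 counts these numbers were the same but for 20 in malathion replicate 3. The replicate 3 libraries thus held the fewest carriers in both groups, and the difference between the groups at equal depth was within the spread (31.0 ± 7.81 in control and 26.3 ± 5.51 in malathion, SD, n = 3 each, exact permutation p = 0.5, adjusted 0.667 over 4 measures, smallest possible p 0.1).

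**Figure D1:**
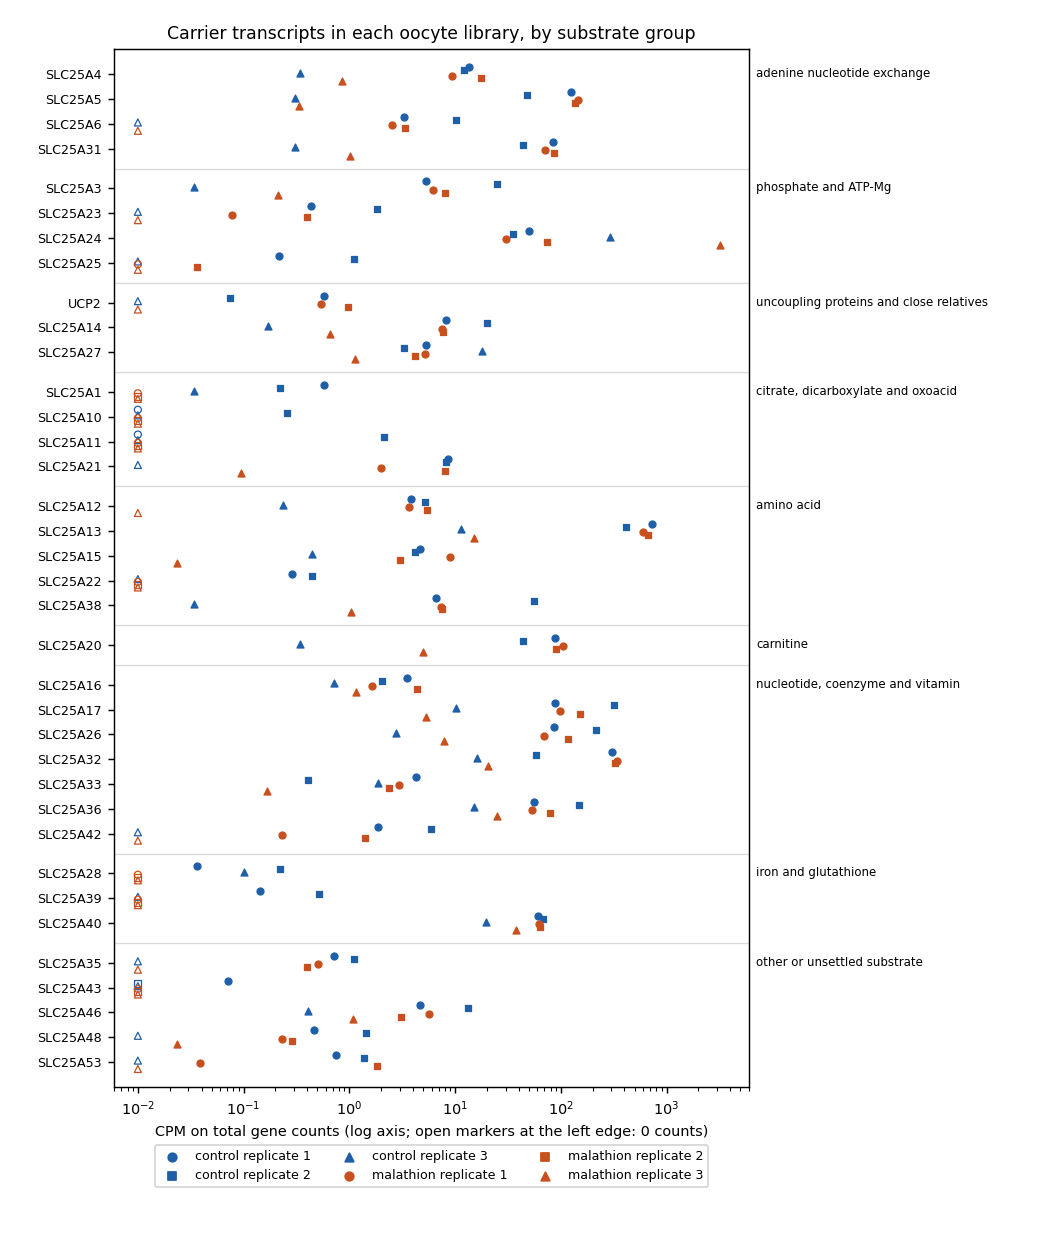
Carrier transcripts in each library, in CPM on a log axis, for 36 of the 37 carriers with at least 1 count, ordered by substrate group. Circles, squares and triangles are replicates 1, 2 and 3, and open markers stand for 0 counts. The triangles of replicate 3 lie to the left for most carriers and to the right for SLC25A24.

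The summed level of the family in replicates 1, 2 and 3 was 1743, 1589 and 390.1 CPM for the control and 1646, 1875 and 3329 CPM for malathion. The 4 libraries of replicates 1 and 2 thus lay close together, while control replicate 3 was the lowest of all and malathion replicate 3 the highest. The mean was 1240 ± 741 CPM in control and 2283 ± 913 CPM in malathion libraries (SD, n = 3 each), a difference within the spread (exact permutation p = 0.2, adjusted 0.667, smallest possible p 0.1). The difference of 1043 CPM between the means came to 94.8 CPM without both replicate 3 libraries. Leaving the carrier SLC25A24 out of the sum, a choice made after its values were seen, gave 1693, 1553 and 98.5 CPM in control and 1615, 1802 and 124 CPM in malathion replicates 1, 2 and 3 (exact permutation p = 0.7, adjusted 0.7). In bulk libraries, fewer cells of a kind cannot be told apart from less RNA per cell.

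**Figure D2:**
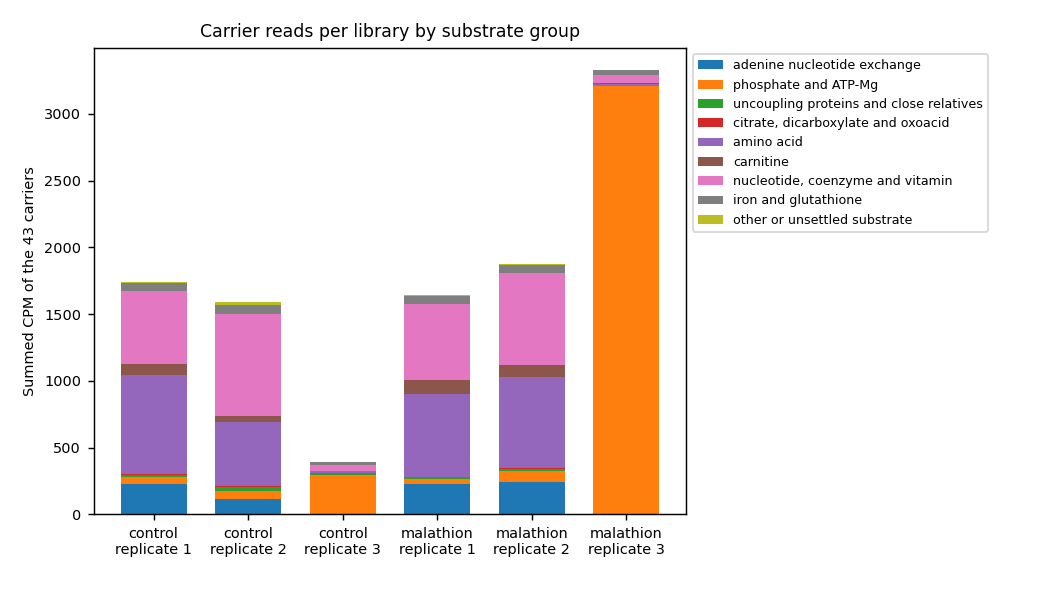
Summed CPM of the 43 carriers in each library, split by substrate group, as stacked bars from 0. Amino acid carriers and carriers of nucleotides, coenzymes and vitamins make up most of the bars of replicates 1 and 2, and the phosphate and ATP-Mg group, which holds SLC25A24, makes up most of the bars of replicate 3.

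In replicates 1 and 2, 30.2% to 42.3% of the family's reads came from amino acid carriers and 31.4% to 48.2% from carriers of nucleotides, coenzymes and vitamins. The adenine nucleotide exchangers held 7.19% to 13.8% there and the phosphate and ATP-Mg carriers 2.23% to 4.37%. SLC25A13 alone held 26.1% to 41.4% of the reads of the family in these 4 libraries. In control replicate 3 and malathion replicate 3, SLC25A24 held 74.7% and 96.3%. These are shares of reads, not of transcript molecules.

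No carrier passed the test of malathion against control. Of the 43 carriers, 28 passed the filter on low counts, and 0 of the 28 were called by the quasi-likelihood F test of edgeR (adjusted p under 0.05), beside 0% of the 10678 genes tested (adjusted p = 1 for each carrier). No carrier had an unadjusted p under 0.05 in that test, against 1.03% of all genes, 0.328% higher and 0.702% lower, and with TMM factors 1 carrier did (SLC25A27, adjusted p = 0.9998). Limma-voom called 0 of the 28 and had 0 at an unadjusted p under 0.05, and so did DESeq2 for the 26 carriers it gave a p. DESeq2 gave none for SLC25A24 (log2 fold change 3.41 ± 1.98) and SLC25A27 (−3.56 ± 1.54). The control and malathion values overlapped for each of the 28, while they did not overlap for 0.749% of all genes tested. The log2 fold change, malathion minus control, was above 0 for 11 carriers and below 0 for 17, or 60.7% below against 66.3% of all genes. Its median was −0.37 over the carriers and −0.33 over all genes. Scaling by TMM factors in place of library totals raised the median of all genes by 0.25 and split the carriers 14 to 14 (median 0.022, against −0.077 for all genes, of which 53.4% lay below 0). Standard errors had a median of 2.33 on the log2 scale over the carriers, and of 1.04 with the replicate number as a block, where 0 carriers were called too.

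**Figure D3:**
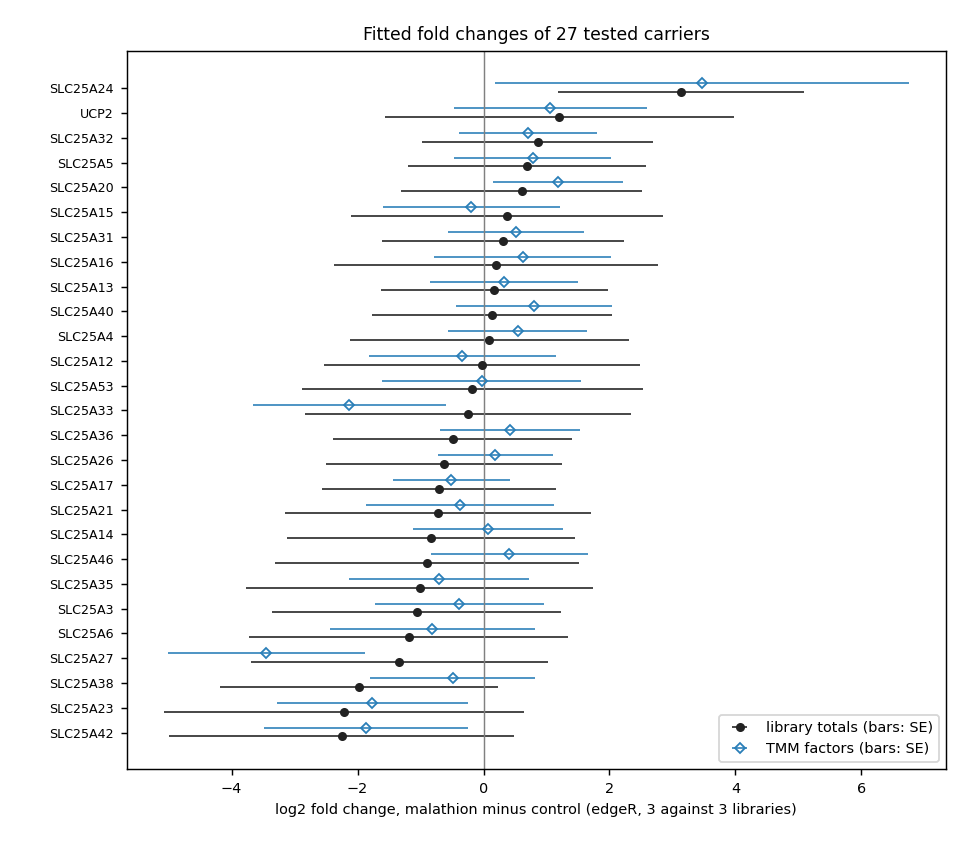
Log2 fold change, malathion minus control, of 27 of the 28 tested carriers from edgeR over 3 against 3 libraries, with bars for the standard error. Filled circles use library totals and open diamonds TMM factors. Those drawn run from −2.26 for SLC25A42 to 3.13 for SLC25A24 with library totals, and none passed the test.

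The adenine nucleotide exchangers carry ATP out of the matrix in exchange for ADP. SLC25A5 (ENSSSCG00000012623), the isoform of proliferating tissues, stood at 126, 48.1 and 0.305 CPM in control replicates 1, 2 and 3, and after malathion at 145, 136 and 0.331 CPM in replicates 1, 2 and 3. It was thus nearly absent from both replicate 3 libraries, by a factor of 358 between the means of those 2 and of the other 4, and low in control replicate 2. SLC25A31 (ENSSSCG00000009078), the isoform known from germ cells, stood at 83.5, 43.6 and 0.305 CPM in the control and at 70.15, 86.4 and 1.02 CPM in the malathion replicates. As for SLC25A5, both replicate 3 libraries were lowest and control replicate 2 next, while the order of the remaining libraries differed. SLC25A4 (ENSSSCG00000015790), the isoform of heart and muscle, stood at 13.6, 12.2 and 0.339 CPM in the control and 9.45, 17.6 and 0.851 CPM in the malathion replicates, where control replicate 2 was level with the rest. SLC25A6 (ENSSSCG00000033673), a further isoform, stood at 3.27, 10.2 and 0 CPM in the control and 2.56, 3.35 and 0 CPM in the malathion replicates, and was highest in control replicate 2. The log2 fold changes were 0.69 ± 1.89 (SE) for SLC25A5, 0.31 ± 1.92 for SLC25A31, 0.094 ± 2.22 for SLC25A4 and −1.19 ± 2.53 for SLC25A6. The first ran from 0.11 without control replicate 3 to 1.95 without control replicate 1. The last turned to 0.26 without control replicate 2, and SLC25A31 and SLC25A4 turned below 0 without control replicate 3 (−0.28 and −0.47) and without malathion replicate 2 (−0.26 and −0.76). These genes are close paralogs, and reads without a unique alignment (from 2.45% to 8.37% per file) were counted for no gene, so their levels are uncertain.

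Phosphate enters mitochondria through SLC25A3, and the ATP-Mg carriers exchange ATP-Mg for phosphate under control of calcium. SLC25A24 (ENSSSCG00000006848), a calcium-regulated ATP-Mg carrier, stood at 49.5, 35.6 and 292 CPM in control replicates 1, 2 and 3, and after malathion at 30.4, 73.5 and 3205 CPM in replicates 1, 2 and 3. On library totals it was the single tested carrier with both replicate 3 libraries above the other 4. Of all tested genes, 1.79% had this order and 83.8% had the opposite. Whether SLC25A24 was alone in this with TMM factors was not examined. Malathion replicate 3 held 135605 counts of it, against 8594 in control replicate 3 and at most 2040 elsewhere. The log2 fold change was 3.13 ± 1.95 (SE), the largest of the family, and it rested on that library, since it was −1.27 without malathion replicate 3 and 0.29 without both replicate 3 libraries. The fitted value also fell to 1.23 with the replicate number as a block and to 1.39 with limma-voom. SLC25A3 (ENSSSCG00000000886), the phosphate carrier, stood at 5.33, 24.9 and 0.0339 CPM in the control and 6.24, 8.03 and 0.213 CPM in the malathion replicates, so control replicate 2 was the highest. Its log2 fold change was −1.06 ± 2.30, and 0.85 without control replicate 2. SLC25A23 (ENSSSCG00000013550) stood at 0.432, 1.81 and 0 CPM in the control and 0.0775, 0.396 and 0 CPM in the malathion replicates (log2 fold change −2.22 ± 2.86, and −0.45 without control replicate 2). SLC25A25 reached 1.11 CPM in control replicate 2 and was not tested.

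Uncoupling proteins had few reads. UCP2 (ENSSSCG00000014833), the form found in many tissues, had 16, 2 and 0 counts in control replicates 1, 2 and 3, and 14, 27 and 0 counts in malathion replicates 1, 2 and 3, at most 0.972 CPM. Replicates 1 thus held like numbers of reads, while control replicate 2 stood low and malathion replicate 2 high (log2 fold change 1.203 ± 2.78, from 0.31 to 3.64 when 1 library was left out). SLC25A14 (ENSSSCG00000012660) and SLC25A27 (ENSSSCG00000001720) are relatives that are mainly known from brain. SLC25A27 stood at 5.29, 3.32 and 17.9 CPM in the control and 5.23, 4.14 and 1.13 CPM in the malathion replicates. The 4 libraries of replicates 1 and 2 lay between 3.32 and 5.29 CPM, while control replicate 3 was the highest and malathion replicate 3 the lowest. Its log2 fold change was −1.34 ± 2.36 with library totals, −3.45 ± 1.57 with TMM factors and 0.12 without both replicate 3 libraries. SLC25A14 stood at 8.28, 20.1 and 0.170 CPM in the control and 7.55, 7.74 and 0.662 CPM in the malathion replicates, a log2 fold change of −0.84 ± 2.29 that turned to 0.074 with TMM factors.

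Carriers of citrate and dicarboxylates had few reads. SLC25A1 (ENSSSCG00000010116), which exports citrate for fatty acid synthesis, had 16, 6 and 1 counts in control replicates 1, 2 and 3 and 0 in each malathion library. Pooled over the 3 control libraries this was 0.273 CPM, and 0 counts allow up to 0.0313 CPM in the malathion libraries together (3 counts). The ratio of these pooled values, 8.71, leaves out the spread between libraries and the counting error of the 23 control counts. It is thus no lower bound on a difference between the groups. SLC25A11 (ENSSSCG00000032472), the oxoglutarate carrier of the malate-aspartate shuttle, had 58 counts in control replicate 2 and 0 in the other 5 libraries. SLC25A10 (ENSSSCG00000033620), the dicarboxylate carrier, had 7 counts in that same library and 0 elsewhere. SLC25A21 (ENSSSCG00000039317), the carrier of 2-oxoadipate and other oxodicarboxylates, was the single member of this group that was tested. It stood at 8.49, 8.15 and 0 CPM in the control and 2.01, 7.99 and 0.0945 CPM in the malathion replicates, so malathion replicate 1 stood below the 3 other libraries of replicates 1 and 2 (log2 fold change −0.72 ± 2.43). That estimate was −0.15 without malathion replicate 3 and −2.39 without malathion replicate 2.

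Of the 37 carriers with counts, 7 were at 0 in every malathion library, 18.9% against 13.8% of the 16852 genes with counts. None was at 0 in every control library, against 3.82% of these genes. These 7 were SLC25A1, SLC25A10, SLC25A11, SLC25A22, SLC25A28, SLC25A39 and SLC25A43, with 2 to 58 counts each in the control libraries. None of them passed the filter on low counts, which also weighs how many libraries hold the counts. SLC25A22, SLC25A39 and SLC25A43 are named after their values were seen. SLC25A1 and SLC25A28 (ENSSSCG00000037536), an iron importer of mitochondria with 1, 6 and 3 control counts, had counts in each control library. All their control values thus lay above all malathion values, as for 2 of the 37 carriers and 0.694% of the genes with counts. For both genes the lowest control library held 1 count, under the 3 counts that a value of 0 allows. Control replicates 1 and 2 detected 14099 and 14707 genes against 12211 and 13589 in malathion replicates 1 and 2, and the part of this in the zeros was not tested.

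Amino acid carriers include the aspartate/glutamate exchangers. SLC25A13 (ENSSSCG00000015336), known as citrin, sends aspartate to the cytosol for the malate-aspartate shuttle and is activated by calcium. It stood at 721, 414 and 11.4 CPM in control replicates 1, 2 and 3, and after malathion at 604, 668 and 15.2 CPM in replicates 1, 2 and 3. Both replicate 3 libraries were far below the rest, and the malathion values of replicates 1 and 2 lay between those of the control. This was a log2 fold change of 0.17 ± 1.80, from −0.40 to 1.01 when 1 library was left out. SLC25A12 (ENSSSCG00000015949), the aralar form of the same carrier, stood at 3.81, 5.16 and 0.238 CPM in the control and 3.64, 5.40 and 0 CPM in the malathion replicates, with overlapping groups (log2 fold change −0.028 ± 2.51). SLC25A38 (ENSSSCG00000029708), the glycine carrier needed for heme synthesis, stood at 6.59, 56.3 and 0.0339 CPM in the control and 7.44, 7.45 and 1.04 CPM in the malathion replicates. Control replicate 2 was thus 7.86 times the mean of control replicate 1 and malathion replicates 1 and 2, which themselves ranged from 6.59 to 7.45 CPM. Its log2 fold change of −1.98 ± 2.21 turned to 0.68 without control replicate 2 and to 0.19 with the replicate number as a block. SLC25A15, an ornithine carrier of the urea cycle, lay between 0.0236 and 9.03 CPM.

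SLC25A20 (ENSSSCG00000011366) carries acylcarnitines into the matrix for fatty acid oxidation. It stood at 87.3, 43.8 and 0.339 CPM in control replicates 1, 2 and 3, and after malathion at 105, 90.5 and 4.99 CPM in replicates 1, 2 and 3. The malathion library was the higher in each of the 3 same-numbered pairs, although malathion replicate 3 stood below both control replicates 1 and 2. Only SLC25A5, on 14 against 9 counts in replicates 3, and SLC25A32 among the other tested carriers had this order. Together these were 3 of 28 carriers against 6.8% of all tested genes, and 0 carriers had the malathion library lower in each pair, against 14.6%. Genes at 0 counts in both replicate 3 libraries could enter neither count. Among these, SLC25A6, SLC25A23, SLC25A35 and SLC25A42 were lower after malathion in replicates 1 and 2, while UCP2 and SLC25A53 were lower in replicates 1 and higher in replicates 2. SLC25A20 had a log2 fold change of 0.61 ± 1.91 with library totals and 1.18 ± 1.03 with TMM factors, from 0.026 to 1.60 when 1 library was left out.

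Carriers of nucleotides, coenzymes and vitamins were the group with the most tested members, 8 of 8 matched, 2 above and 6 below 0. SLC25A32 (ENSSSCG00000006049), the carrier of folate and FAD, stood at 306, 58.5 and 16.0 CPM in control replicates 1, 2 and 3, and after malathion at 341, 328 and 20.3 CPM in replicates 1, 2 and 3. Control replicate 1 and malathion replicates 1 and 2 lay within a factor of 1.11, and control replicate 2 was at 0.180 of their mean. Its log2 fold change of 0.86 ± 1.84 was 0.13 without control replicate 2 and both replicate 3 libraries, which left control replicate 1 as the only control. SLC25A17 (ENSSSCG00000000072), which works in the peroxisomal membrane on coenzyme A and related cofactors, showed the reverse order in control replicate 2, at 88.2, 319 and 10.1 CPM in the control and 97.8, 152 and 5.32 CPM in the malathion replicates (log2 fold change −0.71 ± 1.86). SLC25A26 (ENSSSCG00000011498), the carrier of the methyl donor S-adenosylmethionine, stood at 85.4, 213 and 2.75 CPM in the control and 69.8, 117 and 7.78 CPM in the malathion replicates (log2 fold change −0.63 ± 1.88, and 0.18 with TMM factors). Both were highest in control replicate 2.

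The pyrimidine nucleotide carriers SLC25A36 and SLC25A33 supply the building blocks of mitochondrial DNA and RNA. SLC25A36 (ENSSSCG00000036855) stood at 56.2, 150.2 and 15.3 CPM in the control and 53.1, 79.5 and 24.8 CPM in the malathion replicates. It kept more of its level in the replicate 3 libraries than most carriers, with a factor of 4.23 between the means of the other 4 and of these 2, against a median of 22.5 over the 21 tested carriers with more than 3 counts there and of 20.1 over 7406 such genes. Its log2 fold change was −0.49 ± 1.90, and 0.42 with TMM factors. SLC25A33 (ENSSSCG00000038006) stood at 4.25, 0.406 and 1.87 CPM in the control and 2.94, 2.38 and 0.165 CPM in the malathion replicates, lowest in malathion replicate 3 and next in control replicate 2 (log2 fold change −0.25 ± 2.59). SLC25A42 (ENSSSCG00000013927), a coenzyme A carrier, stood at 1.87, 5.98 and 0 CPM in the control and 0.232, 1.40 and 0 CPM in the malathion replicates (log2 fold change −2.26 ± 2.74, and −0.78 without control replicate 2). Each malathion library of replicates 1 and 2 stood below its control for that gene.

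SLC25A40 (ENSSSCG00000026177), a carrier of glutathione into mitochondria, was the steadiest of the tested family in CPM on library totals. It stood at 60.6, 68.3 and 19.7 CPM in control replicates 1, 2 and 3, and after malathion at 62.2, 63.5 and 37.6 CPM in replicates 1, 2 and 3. Control replicate 1 and malathion replicates 1 and 2 lay within a factor of 1.05 and control replicate 2 at 1.10 of their mean, where that ratio was 0.106 for UCP2 and 7.86 for SLC25A38. The replicate 3 libraries were lower by a factor of 2.22 on average in CPM, the smallest drop among the tested carriers that dropped. TMM factors were 0.141 for control replicate 3, 0.138 for malathion replicate 3 and 2.26 to 3.57 for the other libraries. Steadiness with these factors was not examined. Malathion against control gave a log2 fold change of 0.14 ± 1.91, and −0.24 without control replicate 3. Its paralog SLC25A39 had 4, 14 and 0 control counts and none after malathion. In the group of other or unsettled substrate, SLC25A46 (ENSSSCG00000014197), a protein of the outer membrane that bears on mitochondrial shape, stood at 4.64, 13.4 and 0.407 CPM in the control and 5.69, 3.10 and 1.09 CPM in the malathion replicates (log2 fold change −0.90 ± 2.42, and 0.41 with TMM factors). The other members of that group did not exceed 1.84 CPM in a library. SLC25A43, which lies beside SLC25A5 in the RefSeq gene order, had 2 counts in control replicate 1 and 0 in the other 5 libraries.

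Same-numbered libraries were also compared pair by pair, though no label says that the numbers mark pairs. Ratios were taken as log2 of malathion over control after adding 1 CPM to both. Their SD over the 28 tested carriers was 0.52, 1.32 and 1.10 for replicates 1, 2 and 3, against 0.50, 1.23 and 1.62 over all tested genes. In replicates 1 the ratios of the 11 carriers at a mean of 10 CPM or more ran from −0.69 for SLC25A24 to 0.26 for SLC25A20. In replicates 2 they ran from −2.76 for SLC25A38 to 2.47 for SLC25A32, and in replicates 3 from −0.82 for SLC25A17 to 3.45 for SLC25A24. SLC25A38 reached that mean through control replicate 2 alone, the library that also sets its ratio.

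**Figure D4:**
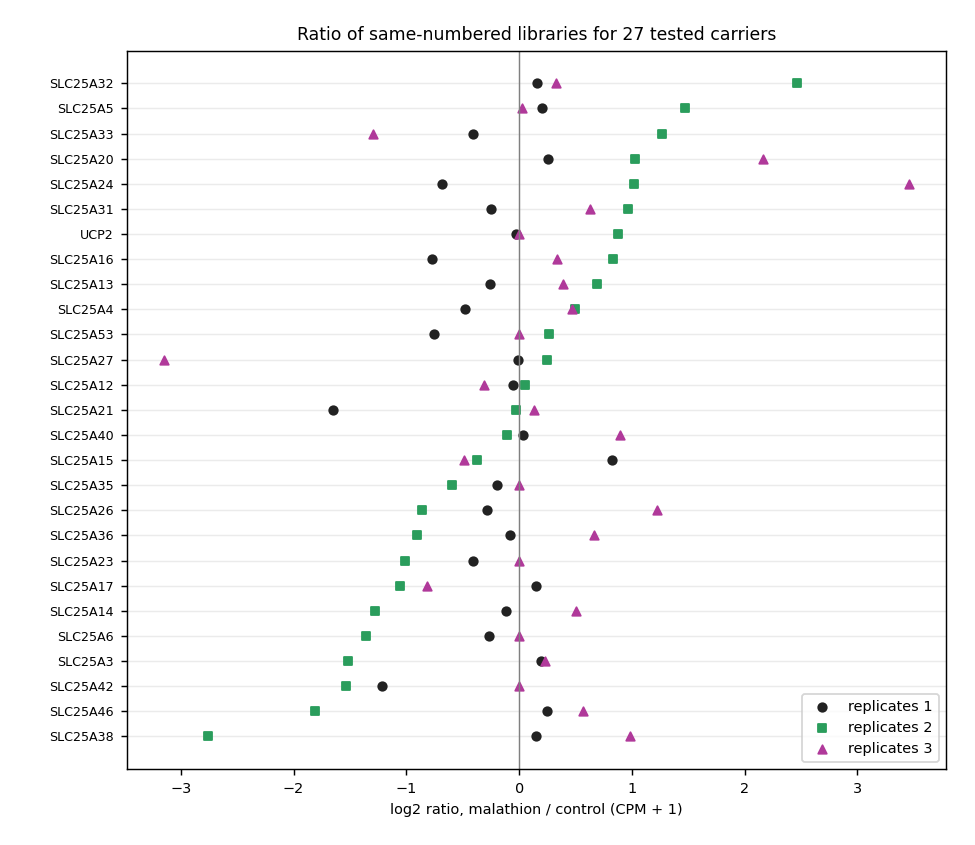
Log2 of malathion over control, after adding 1 CPM to both, for 27 of the 28 tested carriers within replicates 1, 2 and 3, ordered by the ratio in replicates 2. The circles of replicates 1 run from −1.66 to 0.82, while SLC25A38 and SLC25A32 in replicates 2, and SLC25A27, SLC25A20 and SLC25A24 in replicates 3, lie far from 0.

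The carriers shared the library differences of the other genes. In CPM on library totals, both replicate 3 libraries lay below the other 4 for 25 of the 28 tested carriers, 89.3% against 83.8% of all tested genes. SLC25A24, SLC25A27 and SLC25A33 were the 3 that did not follow. Control replicate 2 held the highest value of 13 carriers, 46.4% against 54.7% of all tested genes. It stood more than 2-fold above each of control replicate 1 and malathion replicates 1 and 2 for 9 carriers (32.1% against 28.6%) and more than 2-fold below each of them for 4 (14.3% against 7.89%). Among the 9 were SLC25A3, SLC25A6, SLC25A14, SLC25A17, SLC25A23, SLC25A38, SLC25A42 and SLC25A46, and the 4 were SLC25A5, SLC25A32, SLC25A33 and UCP2. Carriers of each direction thus stood within the same substrate groups, as SLC25A5 and SLC25A6 did among the adenine nucleotide exchangers.

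Carriers reach the inner membrane through the receptor TOMM70, the outer membrane pore, the small TIMM chaperones and the TIMM22 complex. Of 16 listed genes of this import path, 13 were matched and 10 tested, and 0 passed in either direction (2 above and 8 below 0, median log2 fold change −1.85 against −0.33 for all genes). TIMM8A, a small chaperone of the intermembrane space, stood at 1.08, 133 and 0.204 CPM in control replicates 1, 2 and 3, and after malathion at 1.32, 0.792 and 0.0473 CPM in replicates 1, 2 and 3 (log2 fold change −5.95 ± 2.51). TOMM20, a receptor of the outer membrane, stood at 8.17, 344 and 0.611 CPM in the control and 7.36, 9.79 and 0.331 CPM in the malathion replicates (−4.33 ± 2.17). Both were high in control replicate 2 alone, and the median of the list was 0.35 without that library, against 0.41 for all genes. TOMM70, named after its values were seen, stood at 63.4, 167 and 2391 CPM in the control and 74.2, 121 and 17.2 CPM in the malathion replicates, so that its high library was control replicate 3 (−3.62 ± 2.00).

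Other transport proteins of the mitochondrial membranes, such as the VDAC pores, the pyruvate carrier and the calcium uniporter, had 20 of 23 genes matched and 16 tested. None passed, 6 stood above and 10 below 0, and the median log2 fold change was −0.27. The 2 with the smallest p were SFXN4 (−3.53 ± 2.71), a sideroflexin, and VDAC3 (−1.89 ± 1.95), an outer membrane pore at 31.8, 279 and 0.713 CPM in the control and 33.1, 50.8 and 0 CPM in the malathion replicates. Of 10 regulators of mitochondrial gene expression, all matched, 6 were tested, 0 passed and 6 stood below 0, beside 66.3% of all genes. Their median was −0.98 against −0.33 for all genes, and −0.17 against 0.41 without control replicate 2. TFAM, which packages and transcribes mitochondrial DNA, had 57, 7698 and 14 counts in the control and 21, 8 and 24 counts in the malathion replicates (−7.41 ± 2.54), and PPARD, a nuclear receptor of fatty acids, had 46, 246 and 1 against 10, 37 and 0 counts (−2.64 ± 2.74). For TFAM and PPARD too, the highest library was control replicate 2.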

How the data were processed

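Read counts per gene from 6 Smart-seq2 libraries of polyadenylated oocyte RNA, 3 control and 3 malathion, were used as the authors deposited them, without normalization. The submitters' processing notes name STAR 2.5.3a, HTSeq 0.9.1 and DESeq2 1.20.0. Genome build, annotation and strand setting are not given in the sources used here. Rows naming no gene held 36.7% to 42.6% of a file and were left out. A name table gave a symbol to 14857 of 25880 genes. Without a stated strand setting, reads of overlapping antisense genes cannot be told apart.

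Groups came from the sample titles. The comparison used edgeR 4.0.16 (R 4.3.3), its quasi-likelihood F test on library totals, filterByExpr (minimum count 10, minimum total 15), two-sided, with Benjamini-Hochberg adjustment over 10678 genes at 0.05. Standard errors were derived from F. Alternatives were TMM factors (0.138 to 3.57), DESeq2 1.42.0, limma-voom (3.58.1), no filter, the replicate number as a block, each library left out and both replicate 3 libraries left out. Single values per library used exact permutation tests. Scripts were tested on simulated data with less spread between libraries and none that stood apart. That test therefore does not show how the comparison performs on these libraries. No 2 libraries were duplicates (chi-square per degree of freedom at least 56.9). After subtraction of the group mean, control and malathion replicates 1, 2 and 3 correlated pairwise at r = 0.467, 0.378 and 0.587 across genes, which are not independent, so the numbers were taken to pair the libraries, though no label says what a number marks. Libraries of different numbers correlated at −0.541 to 0.439, the highest being control replicate 1 with malathion replicate 2, above the pair of replicates 2.

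Carriers, substrate groups and lists were chosen with earlier results of these data known. Named carriers were the 8 with most CPM, the 5 with the smallest p in each direction, the highest of each substrate group, and 21 fixed symbols. In each other list the 2 genes with the smallest p were named. Of the carriers, 1 is counted in the totals and is not reported singly here.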

Additional observations from a re-analysis of the deposited data

How the results depend on the processing

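No carrier and no gene was called under any of the 13 alternatives run, including the replicate block, which changed no call. With edgeR's test, 110 genes had an unadjusted p under 0.05, against 383 with TMM factors, 227 with DESeq2, 3 with limma-voom, 270 without the filter on low counts and 136 with the replicate block, and 0 were called in each. For 1119 genes the adjusted DESeq2 p was missing. The alternative without control replicate 2 and both replicate 3 libraries was chosen after seeing the data. It left control replicate 1 as the only control library, so its values are effect sizes with no spread measured in the control.

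The median log2 fold change of the carriers, −0.37, was 0.022 with TMM factors, −0.036 with DESeq2, 0.046 with limma-voom, −0.84 without the filter, −0.036 with the replicate block, −0.17 without both replicate 3 libraries, 0.023 without control replicate 2 and both replicate 3 libraries, and −0.92 to 0.48 when 1 library was left out. The median of all genes, −0.33, was −0.077, −0.14, −0.30, −0.57, −0.25, −0.34 and 0.075 in the same order of settings. With 1 library left out it ran from −0.85 to 0.41. The difference in summed CPM, 1043, was 520 to 1361 when 1 library was left out, 7190 with TMM factors, and 17.7 without control replicate 2 and both replicate 3 libraries.

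Signs of the named carriers turned as follows, and the cause was not tested. With TMM factors, under which SLC25A15 also turned, from 0.37 to −0.19, SLC25A14 stood at 0.074, SLC25A26 at 0.18, SLC25A36 at 0.42 and SLC25A46 at 0.41, and with DESeq2 at 0.049, 0.16, 0.38 and 0.40. With limma-voom SLC25A3 stood at 0.15, SLC25A14 at 0.039, SLC25A21 at 0.13, SLC25A38 at 0.49 and SLC25A26 at 0.053. With the replicate block SLC25A3 stood at 0.050, SLC25A14 at 0.026, SLC25A38 at 0.19 and SLC25A26 at 0.085. Without both replicate 3 libraries SLC25A27 stood at 0.12, SLC25A12 at 0.010, SLC25A33 at 0.19 and SLC25A40 at −0.037. Without control replicate 2 as well, SLC25A4 stood at −0.0073, SLC25A31 at −0.093, SLC25A3 at 0.42, SLC25A12 at 0.25, SLC25A13 at −0.18, SLC25A38 at 0.18, SLC25A17 at 0.50, SLC25A26 at 0.13 and SLC25A36 at 0.24.

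When 1 library was left out, values kept their sign from −4.18 to −0.45 for SLC25A23, −1.75 to −0.30 for SLC25A27, −4.46 to −0.78 for SLC25A42 and 0.33 to 2.63 for SLC25A32, and ran from −0.76 to 0.63 for SLC25A4, −1.81 to 0.26 for SLC25A6, −0.28 to 1.26 for SLC25A31, −1.65 to 0.85 for SLC25A3, −1.27 to 4.69 for SLC25A24, −1.42 to 0.33 for SLC25A14, −0.76 to 0.57 for SLC25A12, −0.40 to 1.01 for SLC25A13, −2.56 to 0.68 for SLC25A38, −1.43 to 0.79 for SLC25A17, −1.37 to 0.55 for SLC25A26, −0.77 to 0.68 for SLC25A33, −0.97 to 0.56 for SLC25A36, −0.24 to 0.44 for SLC25A40 and −1.55 to 0.38 for SLC25A46.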
